A study of Mus musculus with 24 samples.

Results

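The circadian clock genes described here are Npas2, Clock, Arntl, Per1, Per2, Per3, Cry1, Cry2, Nr1d1 and Dbp. They were taken by gene symbol, and all 10 have a row in both count tables, of 38937 genes in the table of 8 shRNA libraries and of 39310 genes in the table of 16 siRNA libraries. The group was put together with the measured levels known. Npas2 was selected on its measured counts, which were 0 or nearly 0 in the libraries of one eIF2α genotype and above 0 in every library of the other. Its levels are therefore described and not tested. The other 9 genes passed the filter on low counts in both tables, and Npas2 passed it in the siRNA table only.

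The mammalian clock is a loop of transcription and repression that runs in most cells with a period of about a day. CLOCK or its paralog NPAS2 pairs with BMAL1, the product of Arntl, and the pair binds E-box sequences and switches on the Per, Cry, Nr1d1 and Dbp genes. PER and CRY proteins return to the nucleus and repress that pair, which closes the main loop. REV-ERBα, the product of Nr1d1, represses Arntl and competes with the ROR activators for the same sites, and DBP activates genes with D-boxes, against the repressor NFIL3. In the lung the clock is known for rhythmic control of airway secretion and inflammation.

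The libraries were made from cultured primary lung adenocarcinoma cells of mice that had been sorted as GFP+ and CD45-. In S/S cells eIF2α, a translation initiation factor, had its normal serine, and in A/A cells an alanine took its place, so that the factor could not be phosphorylated. The shRNA table holds S/S cells with a scramble shRNA (S/S shControl) and S/S cells with Atf4 knocked down by shRNA (S/S shAtf4); ATF4 is the transcription factor made when eIF2α is phosphorylated. The siRNA table holds both genotypes, each treated with control siRNA (S/S siControl, A/A siControl) or with siRNA to Chchd10 (S/S siChchd10, A/A siChchd10), which encodes a protein of the mitochondrial intermembrane space. Each of the 6 groups had 4 libraries, so the eIF2α genotype was compared only in siRNA-treated cells. The labels give the alleles in the sample titles alone; the genotype field calls the A/A siControl samples wild type. The sources used here do not name the tumour driver, how many lines or mice each genotype stands for, the time of harvest or any synchronisation of the cultures, so the clock phase of the cells is unknown and genotype cannot be told apart from cell line. Nothing states that libraries within a group were separate cultures, so p-values measure only the spread between these samples.

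Promoter sequences of 4 members are shown as examples. Npas2 was taken for its detection in A/A cells, Per3 and Per1 for their fall after siChchd10 and Cry1 for its rise. Among the members not shown, Nr1d1 fell more than Per1 in A/A cells. Arntl and Cry2 rose there and kept their calls when any 1 library was left out, which Cry1 did not. Each sequence is the 250 bases before an annotated start, read 5′ to 3′ on the gene's strand, from RefSeq on GRCm38.p6. That start need not be the outer end of the gene span given below. The Npas2 and Per1 windows lie inside those spans, and the Per3 window overlaps its span. Capitals mark the matches to E-box CACGTG, D-box TTATGTAA or TTACGTAA, ROR half-site AGGTCA and CRE TGACGTCA, each searched on both strands. The Npas2 window lies at chr1:39194022-39194271 on the plus strand. The first of 2 Per1 windows, the one shown, lies at chr11:69098699-69098948 on the plus strand. The Per3 window lies at chr4:151044666-151044915 and the Cry1 window at chr10:85185055-85185304, both on the minus strand.
Npas2: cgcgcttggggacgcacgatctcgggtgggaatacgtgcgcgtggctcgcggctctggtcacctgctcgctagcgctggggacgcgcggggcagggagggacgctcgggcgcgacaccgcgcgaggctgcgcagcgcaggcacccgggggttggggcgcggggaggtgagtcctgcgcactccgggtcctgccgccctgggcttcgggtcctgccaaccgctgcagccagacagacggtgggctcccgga
Per1: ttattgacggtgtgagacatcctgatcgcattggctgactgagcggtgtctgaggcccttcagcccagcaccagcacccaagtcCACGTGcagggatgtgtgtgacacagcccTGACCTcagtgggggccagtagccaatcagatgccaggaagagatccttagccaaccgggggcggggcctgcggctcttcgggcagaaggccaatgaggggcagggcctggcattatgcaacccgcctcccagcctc
Per3: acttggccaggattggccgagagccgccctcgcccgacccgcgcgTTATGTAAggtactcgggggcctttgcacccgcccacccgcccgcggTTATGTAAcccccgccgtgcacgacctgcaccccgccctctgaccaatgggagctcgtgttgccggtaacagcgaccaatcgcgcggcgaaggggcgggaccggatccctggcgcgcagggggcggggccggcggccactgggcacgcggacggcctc
Cry1: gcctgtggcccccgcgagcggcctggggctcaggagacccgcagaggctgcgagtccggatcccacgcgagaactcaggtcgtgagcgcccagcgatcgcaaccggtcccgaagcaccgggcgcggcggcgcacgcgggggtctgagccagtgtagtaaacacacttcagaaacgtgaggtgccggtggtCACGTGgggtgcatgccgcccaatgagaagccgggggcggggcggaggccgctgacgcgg
The Npas2 window was 74.8% G or C with 34 CpG pairs and held none of these letters. The Per1 window shown had an E-box from -166 to -161 and a ROR half-site from -137 to -132, counted from the start it precedes. The second Per1 window, at chr11:69099902-69100151, held none of the letters searched. Per3 had 2 D-boxes, from -205 to -198 and from -158 to -151, and Cry1 an E-box from -60 to -55. Of all 32851 windows of this length in the table, 6.02% held the E-box, 0.931% a D-box, 14% the ROR half-site and 1.55% the CRE. Windows were found for 9 of the 10 members, all but Per2. The letters searched were not in the windows of Arntl, Cry2, Nr1d1 and Dbp, which says nothing of sites elsewhere in these genes. Those 4 members also changed after siChchd10 in A/A cells, and any link between the letters and the changes was not tested.

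Libraries held 14067290 to 75409451 counts, and levels are given as CPM, each gene's count per 1e6 counts of its library after scaling between libraries. All 6 epithelial markers examined were detected in each library, although Epcam was low in A/A cells, at means of 1.44 CPM with siControl and 2.57 CPM with siChchd10. Alveolar type 2 markers, defining for the cell type these tumours commonly resemble, summed to 0.473 to 0.916 CPM in the shRNA libraries, with Nkx2-1 at 0 counts there, to 37.3 to 47.8 CPM in S/S siRNA libraries, 380 to 425 CPM in A/A siControl and 1213 to 1417 CPM in A/A siChchd10. The leukocyte markers summed to at most 4.05 CPM and the endothelial ones to at most 2.23 CPM. Fibroblast markers summed to 2.74 to 18.3 CPM in the shRNA libraries, 3.84 to 7.02 CPM in S/S siRNA libraries, 4.49 to 5.21 CPM in A/A siControl and 2.17 to 2.38 CPM in A/A siChchd10. RNAs without a poly(A) tail summed to 2.15 to 4.77 CPM in the shRNA libraries and 0.818 to 3.21 CPM in S/S siRNA libraries. They summed to 2.85 to 6.41 CPM in A/A siControl and 1.69 to 2.53 CPM in A/A siChchd10, where 2 of the 3 tested fell. The library protocol was for total RNA, so these sums are given as levels and not as a measure of RNA quality. Summed Y-linked genes were at 111 to 135 CPM in shControl against 1.46 to 3.56 CPM in shAtf4, and at 104 to 144 CPM in S/S against 288 to 380 CPM in A/A siRNA libraries. On the first principal component, replicate 4 of both shRNA groups (46.0 and 36.1) stood apart from the other 6 libraries (-20.6 to -5.47), and A/A siControl replicate 1 (36.6) lay nearer to the S/S libraries (-69.3 to -63.1) than the other A/A siControl libraries did (59.2 to 66.9). The targets checked the labels: Atf4 was at 39.9% of shControl in shAtf4, and Chchd10 fell by 2.76 and 2.27 on the log2 scale after siChchd10 in S/S and A/A cells, with each treated library below each control. Chchd10 started at 38.1 to 46.0 CPM in S/S siControl but at 7.97 to 10.2 CPM in A/A siControl. After siChchd10 it was at 5.34 to 6.82 CPM in S/S and 1.37 to 2.15 CPM in A/A cells. Atf4 was at 473 to 555 CPM in S/S siControl and 151 to 185 CPM in A/A siControl. The part of these starting levels in the comparisons between genotypes was not tested.

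Compared per kilobase of exon, which allows genes to be set against each other, Nr1d1 and Clock had the highest levels of the 10 genes in most groups, and Npas2 and Per3 the lowest. In S/S siControl the order was Nr1d1 (13.04 CPM per kb), Clock (10.8), Dbp (9.47), Cry1 (3.41), Cry2 (2.96), Per2 (2.83), Per1 (2.75), Arntl (2.42), Per3 (2.00) and Npas2 (0). The libraries of Clock and Dbp overlapped there, as did each neighbouring pair from Cry1 down to Arntl, so the order within those runs lay within the spread. In A/A siControl the order was Nr1d1 (15.8 CPM per kb), Clock (10.3), Dbp (8.81), Cry2 (5.20), Cry1 (4.64), Per1 (3.55), Arntl (3.51), Per2 (3.19), Per3 (2.17) and Npas2 (0.555), and only Per1 and Arntl overlapped. In A/A siChchd10, Npas2 (1.09 ± 0.105 CPM per kb, SD, n = 4) and Per3 (0.982 ± 0.124) came to overlap at the bottom, and Nr1d1 (10.2) and Clock (9.28) at the top. In S/S shControl all neighbours overlapped from Nr1d1 (8.86 CPM per kb) to Cry2 (1.99). The tables were normalised separately, so levels in shRNA and siRNA libraries are set side by side and not tested.

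**Figure D1:**
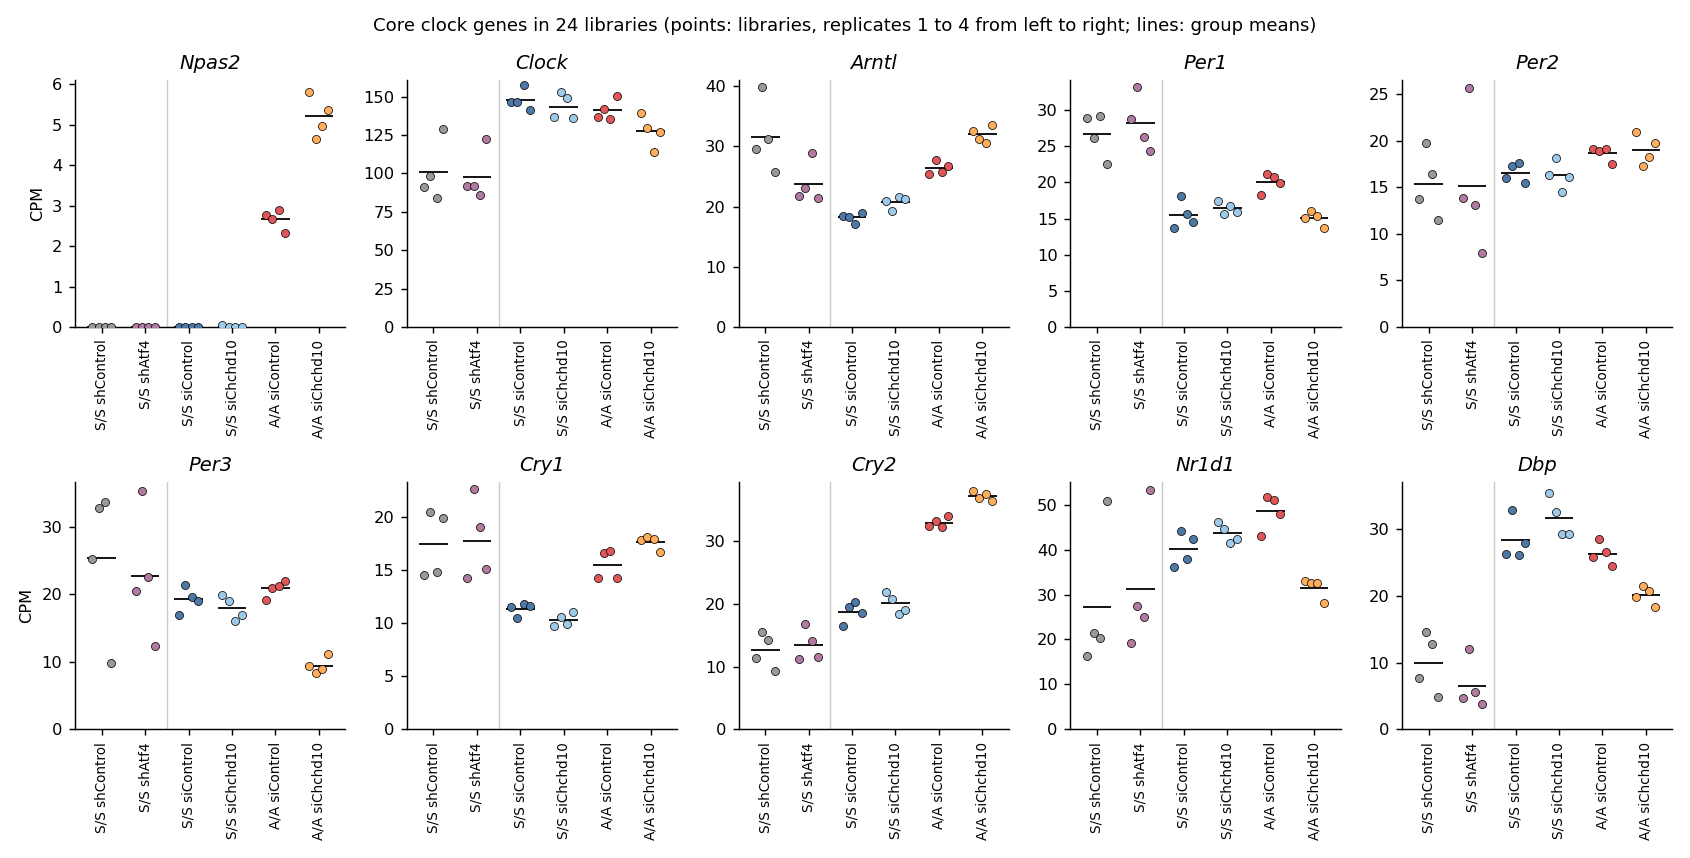
Level of each of the 10 genes in the 24 libraries (y axes: CPM from 0; points: libraries, replicates 1 to 4 from left to right within a group; lines: group means; the grey line divides the shRNA from the siRNA table). Npas2 lies at or near 0 in the 4 S/S groups and between 2.31 and 5.82 CPM in A/A cells, while the other genes were detected in every group.

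NPAS2 is the paralog that can replace CLOCK as the partner of BMAL1. Its gene had the widest gap between the 2 genotypes among the 10, which is the trait it was selected on. Npas2 spans chr1:39193702-39363240 on GRCm38.p6. It had 0 counts in all 12 libraries of S/S shControl, S/S shAtf4 and S/S siControl. A count of 0 over the 4 libraries allows up to 0.0165 CPM in S/S shControl, 0.0267 CPM in S/S shAtf4 and 0.0153 CPM in S/S siControl, limits that cover counting error only. In S/S siChchd10, replicate 1 had 2 counts (0.0417 CPM) and replicates 2 to 4 had 0.

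In A/A siControl, Npas2 had 2.76, 2.67, 2.90 and 2.31 CPM in replicates 1 to 4, from 146, 135, 142 and 108 counts. In A/A siChchd10 it had 5.82, 4.66, 4.98 and 5.36 CPM, from 285, 240, 234 and 408 counts. The A/A libraries thus lay all above the S/S libraries, and the lowest siChchd10 library lay above the highest siControl library of the A/A cells. The group mean was 2.66 ± 0.251 CPM (SD, n = 4) in A/A siControl and 5.20 ± 0.502 CPM in A/A siChchd10, a difference of 0.97 on the log2 scale (SE 0.136) that is given without a test. Against S/S siControl, where the group is at 0, A/A siControl was at least 174-fold higher, taking 3 counts over the group as the floor. Between the siChchd10 groups the ratio was 515, with a 95% counting interval of 142 to 4258 that rests on the 2 counts in S/S cells. That interval covers counting error only, for a gene selected on these values. A smaller number of Npas2-expressing cells and less Npas2 RNA per cell cannot be told apart in bulk libraries, for this gene or for those that follow.

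None of the protein-coding genes counted beside Npas2 on chromosome 1 was absent from S/S cells and clearly present in A/A cells. The comparison was added after the values of Npas2 were known. Within 500 kb, 5 protein-coding neighbours had mean levels of at least 3.73 CPM in each of the 6 groups: Pdcl3, Rpl31, Tbc1d8, Cnot11 and Rnf149. Rpl31 (a ribosomal protein gene), 4.6 kb beyond Npas2, had 374 CPM in S/S siControl and 296 CPM in A/A siControl. Tbc1d8, 8.3 kb beyond it, had 4.50 and 5.63 CPM. Pdcl3, on the other side of Npas2, had 68.2 and 51.4 CPM. Cnot11 had 38.0 and 38.8 CPM, and Rnf149 61.6 and 60.9 CPM. On the log2 scale the A/A minus S/S differences were -0.41 for Pdcl3 (edgeR adjusted p = 2.67e-08) and -0.34 for Rpl31 (adjusted p = 3.08e-06 by the quasi-likelihood test of edgeR, Benjamini-Hochberg adjusted over all genes). The difference was 0.32 for Tbc1d8 (adjusted p = 0.00314). For Cnot11 the difference was 0.03 (adjusted p = 0.569) and for Rnf149 it was -0.01 (adjusted p = 0.763). Lonrf2, Chst10, Nms and Creg2, also within that distance, had no counts in any of the 24 libraries. Gm51581, Rfx8 and Gm3646 had 4, 12 and 1 counts in total, too few to compare.

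**Figure D2:**
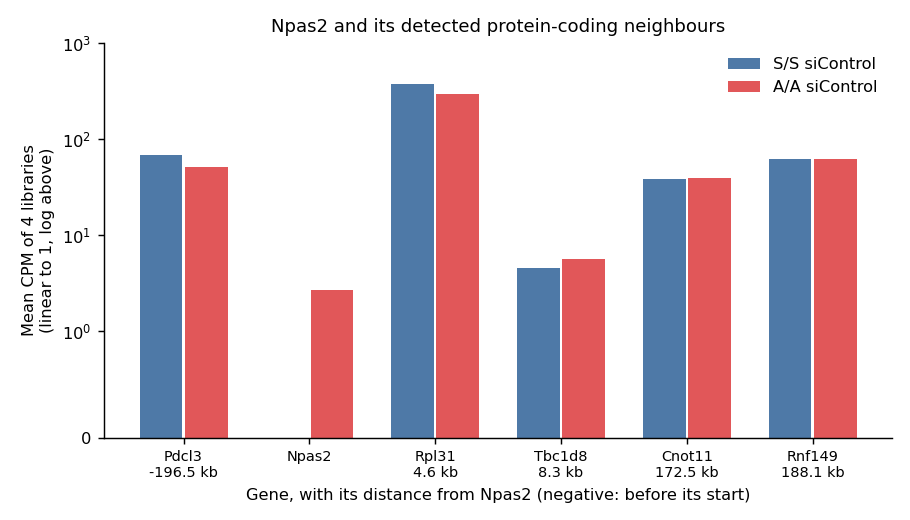
Mean level of Npas2 and its detected protein-coding neighbours in S/S siControl and A/A siControl (y axis: CPM, linear to 1 and logarithmic above; x axis: genes with their distance from Npas2 in kb; bars: means of 4 libraries, from 0). Npas2 has no S/S bar and 2.66 CPM in A/A cells, while the 5 neighbours have bars in both.

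Likeness to Npas2 was measured over the 16 siRNA libraries as the root mean square difference of centred log2 CPM, among 11230 genes with an average log2 CPM of at least 1. It could not be measured in the shRNA libraries, where Npas2 was at 0 throughout. The 5 most alike were Cd36 (0.339), a fatty acid and scavenger receptor; Scnn1g (0.350), a subunit of the epithelial sodium channel; Ces1d (0.395), a carboxylesterase; Allc (0.490), an allantoicase gene; and Slco4c1 (0.496), an organic anion transporter. Cd36 had mean levels of 3.56 CPM with siControl and 6.19 CPM with siChchd10 in S/S cells, and of 230 and 475 CPM in A/A cells. Ces1d was at 0 in both S/S groups and at 1.97 and 6.64 CPM in A/A cells. The libraries fall into S/S and A/A clusters, so the measure mostly reads the difference between genotypes.

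RNA of Clock, the gene for the other partner of BMAL1, a histone acetyltransferase, was detected in every group. Clock (chr5:76209868-76305603) ranged from 84.1 to 129 CPM in S/S shControl, from 85.7 to 122 CPM in S/S shAtf4, from 136 to 157 CPM over the 8 S/S siRNA libraries, from 136 to 151 CPM in A/A siControl and from 114 to 139 CPM in A/A siChchd10. It did not pass the test between genotypes with siControl, where the difference was -0.07 on the log2 scale (edgeR adjusted p = 0.258). With siChchd10 it was lower in A/A than in S/S cells by -0.17 (edgeR adjusted p = 0.00489), although the libraries overlapped.

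Knockdown of Chchd10 in A/A cells changed most of the tested clock genes, in both directions. Per3, Nr1d1, Per1, Dbp and Clock fell, and Arntl, Cry1 and Cry2 rose, so 8 of 9 passed the test at an adjusted p under 0.05. Per2 did not. This comparison called 53.7% of all 18138 genes tested, 26.5% as higher and 27.2% as lower, so a call was common in the whole table. The median change of the 9 was -0.15 on the log2 scale, against -0.01 over all genes tested. Without A/A siControl replicate 1, the library that stood apart, 7 of the 9 were called, all but Cry1 and Per2, with -1.17 for Per3 and -0.68 for Nr1d1, and the difference of Npas2 was 0.98.

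Among the repressors of the main loop, Per3 moved furthest. PER3 is the PER protein whose loss leaves the core rhythm least affected. Per3 (chr4:150997018-151044707) had 19.2, 21.0, 21.3 and 22.02 CPM in the 4 A/A siControl libraries and 9.42, 8.32, 8.90 and 11.1 CPM after siChchd10. The groups were far from overlapping, and the mean went from 20.9 ± 1.20 to 9.43 ± 1.19 CPM, or 45.5% of control. The fall was -1.14 on the log2 scale (SE 0.0841, edgeR adjusted p = 1.98e-11).

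Per1, which responds quickly to hormones and other stimuli as well as to the clock, also fell. Per1 (chr11:69095108-69109965) had 18.3, 21.1, 20.8 and 19.9 CPM in A/A siControl and 15.1, 16.02, 15.4 and 13.7 CPM in A/A siChchd10. All treated libraries lay below all controls, and the change was -0.41 (SE 0.0711, edgeR adjusted p = 1.61e-05). Per2 (chr1:91415977-91459351), the PER gene with the strongest role in the core loop, had 17.5 to 19.1 CPM against 17.3 to 20.9 CPM and a change of 0.03 (edgeR adjusted p = 0.726). Immediate early genes, which respond to the same stimuli as Per1, were measured beside it: 5 of 9 fell, including Nr4a1 (-0.91) and Fos (-0.73), and 1 rose, Crem (0.71), where 27.2% of all genes were lower and 26.5% higher. Their summed level was 305 to 351 CPM in A/A siControl and 245 to 269 CPM in A/A siChchd10. Of 5 glucocorticoid-induced genes 4 were tested and all 4 fell, beside those 27.2% of all genes, among them Sgk1 (-1.51), with sums of 275 to 288 and 221 to 230 CPM. In S/S cells, where Per1 was not called (0.08, edgeR adjusted p = 0.45), 3 of these 4 fell too, beside 13% of all genes. Their sums there were 289 to 301 CPM with siControl and 257 to 270 CPM with siChchd10. Of the 9 immediate early genes, 2 rose and 3 fell in S/S cells, beside 15% and 13% of all genes. The part of both lists in the Per1 result was not tested.

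The CRY genes, for the direct repressors of the CLOCK and BMAL1 pair, went the other way from Per1 and Per3. Cry2 (chr2:92403646-92434085) had 32.3, 33.1, 32.1 and 33.9 CPM in A/A siControl and 37.9, 36.9, 37.4 and 36.4 CPM after siChchd10. The groups did not overlap, and the rise was small at 0.18 (SE 0.0553, edgeR adjusted p = 0.00867). Cry2 shares 295 exonic bases with D930015M05Rik, a processed transcript on the opposite strand. The sources used here do not give the strand setting of the counting, so reads from that stretch cannot be told apart. Cry1 (chr10:85131700-85185054) had 14.2, 16.6, 16.8 and 14.3 CPM against 17.9, 18.2, 18.004 and 16.7 CPM. The lowest treated library lay below the highest control, and the rise was 0.19 (SE 0.0647, edgeR adjusted p = 0.0146). That call was lost without A/A siControl replicate 1 (0.15, adjusted p = 0.0666) or without replicate 4 (adjusted p = 0.0655).

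Nr1d1, the REV-ERBα gene and an output as well as a repressor of the loop, fell to 64.9% of control. Nr1d1 (chr11:98767932-98775377) had 43.0, 51.8, 51.1 and 48.0 CPM in A/A siControl and 33.045, 32.5, 32.5 and 28.0 CPM in A/A siChchd10. Each treated library lay below each control, with means of 48.5 ± 4.00 and 31.5 ± 2.35 CPM (SD, n = 4). The change was -0.62 (SE 0.0661, edgeR adjusted p = 1.92e-08). Nr1d1 shares 263 exonic bases with Thra, a thyroid hormone receptor gene on the opposite strand, and Thra fell by a like amount, -0.63 (edgeR adjusted p = 1.25e-12), from a level of 84.9 to 54.9 CPM. Because the sources used here do not give the strand setting of the counting, reads from the shared stretch cannot be told apart.

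Arntl, the BMAL1 gene and a target of repression by REV-ERBα, rose. Arntl (chr7:113178471-113314126) had 25.5, 27.8, 25.7 and 26.7 CPM in A/A siControl and 32.6, 31.3, 30.6 and 33.6 CPM in A/A siChchd10. The groups did not overlap, and the change was 0.28 (SE 0.0499, edgeR adjusted p = 2.9e-05). Arntl shares 33 exonic bases with Gm45355, an antisense gene, and reads from that stretch cannot be told apart either. As a description, the Arntl to Nr1d1 ratio of CPM was 0.503 to 0.592 in A/A siControl and 0.942 to 1.20 in A/A siChchd10. In S/S cells it was 0.415 to 0.510 and 0.434 to 0.518. Clock fell by 0.15 in A/A cells (edgeR adjusted p = 0.0193) with overlapping libraries, and this call was lost without A/A siControl replicate 4 (adjusted p = 0.086) or A/A siChchd10 replicate 3 (adjusted p = 0.108).

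**Figure D3:**
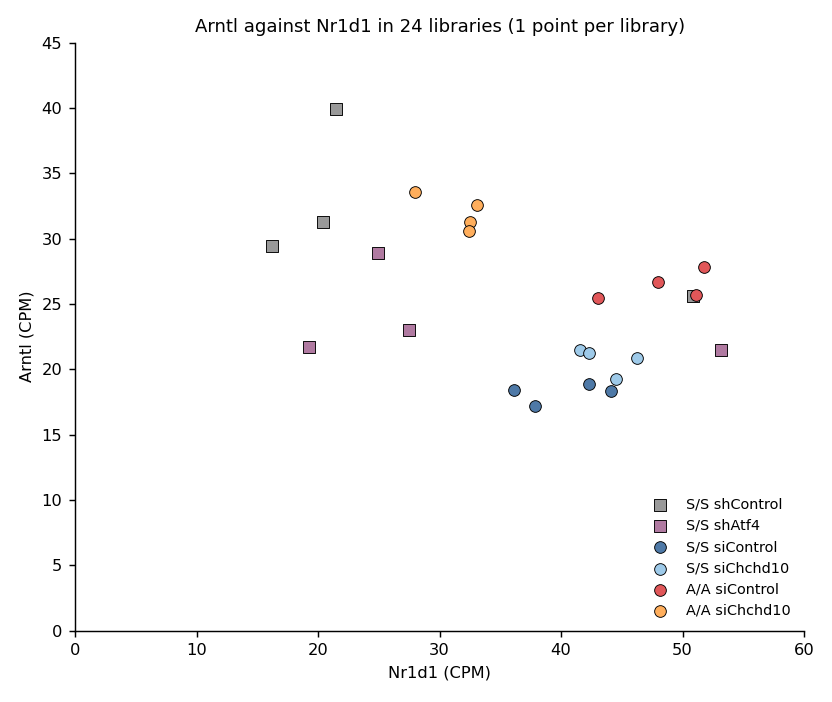
Arntl against Nr1d1 in each of the 24 libraries (both axes: CPM from 0; circles: siRNA libraries; squares: shRNA libraries; colours: groups). The A/A siChchd10 libraries lie up and to the left of A/A siControl, at ratios of 0.942 to 1.20 against 0.503 to 0.592, and the shRNA libraries spread widely, with replicate 4 of each group far to the right.

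Dbp, a direct output of the CLOCK and BMAL1 pair whose product activates D-box genes, fell in A/A cells. Dbp (chr7:45705100-45710203) had 25.9, 28.5, 26.6 and 24.5 CPM in A/A siControl and 19.8, 21.4, 20.8 and 18.4 CPM after siChchd10. The groups did not overlap, and the mean went to 76.1% of control, a change of -0.39 (SE 0.0735, edgeR adjusted p = 6.71e-05). Dbp shares 539 exonic bases with Sphk2, a sphingosine kinase gene on the opposite strand, which rose by 0.40 (edgeR adjusted p = 3.99e-08). With the strand setting of the counting not given, reads from that stretch cannot be told apart, and their part in the Dbp result was not tested.

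In S/S cells the same siRNA changed 1 of the 9 tested clock genes. Arntl rose from 18.4, 18.3, 17.2 and 18.9 CPM to 20.8, 19.3, 21.5 and 21.2 CPM. The groups did not overlap, and the change was 0.19 (SE 0.0525, edgeR adjusted p = 0.00761). The comparison called 28% of all genes tested, 15% as higher and 13% as lower, and 3 of the 9 had an unadjusted p under 0.05. Dbp, at 26.2 to 32.9 CPM against 29.3 to 35.5 CPM, had a change of 0.16 (edgeR adjusted p = 0.107) that passed the test without the filter on low counts (adjusted p = 0.0303) or without S/S siControl replicate 2 (0.24, adjusted p = 0.00842). Nr1d1 had a change of 0.12 (edgeR adjusted p = 0.187), with 36.1 to 44.1 CPM in control and 41.6 to 46.2 CPM in treated libraries. Per3 had a change of -0.10 (edgeR adjusted p = 0.380), and the values for Clock, Per1, Per2, Cry1 and Cry2 lay between -0.14 and 0.10.

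The difference between the siChchd10 effects in the 2 genotypes was tested directly as an interaction (A/A less S/S), where 5 of the 9 genes passed. This test called 35.6% of all genes, 16.7% as higher and 18.9% as lower. The difference was -1.03 for Per3 (edgeR adjusted p = 1.73e-07), -0.74 for Nr1d1 (adjusted p = 1.06e-06), -0.55 for Dbp (adjusted p = 0.000155) and -0.49 for Per1 (adjusted p = 0.000345). Each of these genes fell in A/A cells and was not called in S/S cells. For Cry1 the difference was 0.33 (edgeR adjusted p = 0.00698), as its value was -0.14 in S/S and 0.19 in A/A cells. The rise of Arntl was not shown to differ between genotypes (0.09, edgeR adjusted p = 0.355), nor were the effects on Clock, Per2 and Cry2. All 5 calls were kept when any 1 of the 16 libraries was left out. The genotypes started from different levels of Chchd10 and Atf4, as given above.

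**Figure D4:**
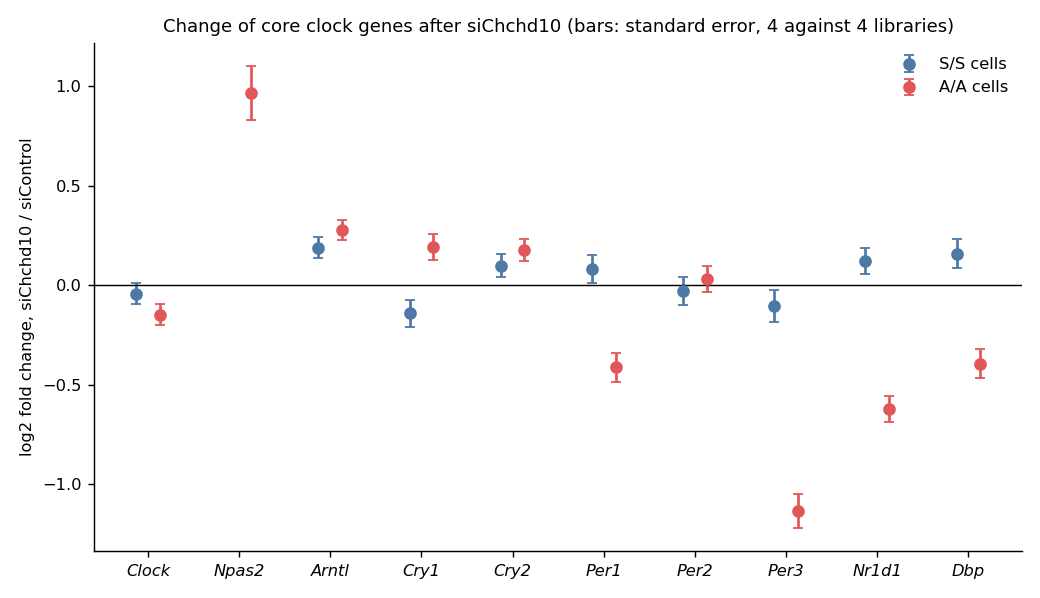
Change of each clock gene after siChchd10 in S/S and A/A cells (y axis: log2 fold change against siControl; points: fitted values; bars: standard error, 4 against 4 libraries; Npas2 has a value in A/A cells only). Per3, Nr1d1, Dbp and Per1 lie below 0 in A/A cells, at -1.14 to -0.39, and near 0 in S/S cells, while Arntl lies above 0 in both.

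Between the genotypes, with control siRNA, 6 of the 9 genes were higher in A/A cells and 0 were lower. The comparison called 70.2% of all genes tested, 35.6% as higher and 34.7% as lower in A/A cells. Cry2 differed most: its 4 libraries were at 16.5, 19.5, 20.3 and 18.5 CPM in S/S and at 32.3 to 33.9 CPM in A/A cells. The groups were well apart, with A/A at 175.6% of S/S and a difference of 0.81 (edgeR adjusted p = 4.3e-13). The limit from the overlap of Cry2 with D930015M05Rik, given above, holds for this difference too. Arntl (0.54, edgeR adjusted p = 2.71e-10), Cry1 (0.44, adjusted p = 1.15e-06) and Per1 (0.37, adjusted p = 4.55e-05) were also higher in every A/A library than in every S/S library. Nr1d1 (0.27, edgeR adjusted p = 0.000696) and Per2 (0.17, adjusted p = 0.0286) passed with overlapping libraries, and Per2 lost its call when any 1 of 5 libraries was left out or under upper-quartile scaling (adjusted p = 0.0658). Per3 (0.12, edgeR adjusted p = 0.202), Dbp (-0.11, adjusted p = 0.197) and Clock did not pass.

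With siChchd10 in both genotypes, 8 of the 9 genes differed, 4 higher and 4 lower in A/A cells, where 70.5% of all genes were called, 34.7% as higher and 35.8% as lower. Cry2 (0.89, edgeR adjusted p = 3.4e-14), Cry1 (0.77, adjusted p = 2.37e-11), Arntl (0.63, adjusted p = 5.56e-12) and Per2 (0.23, adjusted p = 0.00358) were higher. Per3 (-0.92, edgeR adjusted p = 3.08e-10), Dbp (-0.66, adjusted p = 1.12e-08), Nr1d1 (-0.47, adjusted p = 6.29e-07) and Clock (-0.17) were lower. Nr1d1 therefore lay above S/S in A/A cells with control siRNA and below S/S with siChchd10. These comparisons share groups with those within each genotype, so the values are not independent of them. The alveolar type 2 and Y-linked marker sums given above move with genotype too. The sums of alveolar type 2 markers, fibroblast markers and RNAs without a poly(A) tail also move with siChchd10 in A/A cells, and the part of all of these in the results was not tested.

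With the shRNA against Atf4 in S/S cells, 0 of the 9 clock genes passed edgeR's test without a block, and 1 had an unadjusted p under 0.05. DESeq2 also called 0, and the comparison called 0.538% of all 14697 genes tested, 0.15% as higher and 0.388% as lower. The replicate numbers were taken to pair these libraries, an assumption described for the processing. With the replicate number as a block, 3 of the 9 passed, 1 higher and 2 lower. Of all genes 20.2% passed with it, 10.1% in each direction. Arntl had 29.5, 39.9, 31.3 and 25.6 CPM in shControl replicates 1 to 4 and 21.7, 23.0, 28.9 and 21.5 CPM in shAtf4. It was lower in shAtf4 in each of the 4 pairs, by -0.40 with the block (edgeR adjusted p = 0.0105) and -0.41 without it (adjusted p = 0.390). Dbp had 7.70, 14.6, 12.7 and 4.91 CPM against 4.70, 12.0, 5.54 and 3.81 CPM, lower in each pair, with -0.64 (edgeR adjusted p = 0.00835 with the block, 0.676 without). Nr1d1 had 16.2, 21.5, 20.4 and 50.9 CPM against 19.2, 27.5, 24.9 and 53.2 CPM, higher in each pair, with 0.23 (edgeR adjusted p = 0.0467 with the block) and 0.21 (adjusted p = 0.908 without).

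For several of these genes the libraries numbered 4 lay further from the rest than the shRNA groups lay from each other. In replicate 4 of both groups Nr1d1 (50.9 and 53.2 CPM) and Clock (129 and 122 CPM) lay above replicates 1 to 3, which had 16.2 to 27.5 CPM for Nr1d1 and 84.1 to 98.4 CPM for Clock. In the same libraries Per3 (9.82 and 12.4 CPM) and Dbp (4.91 and 3.81 CPM) lay below the other replicates of their group. Without replicate 4 of both groups, the block gave -0.45 for Arntl (edgeR adjusted p = 0.0110), -0.71 for Dbp (adjusted p = 0.00534) and 0.30 for Nr1d1 (adjusted p = 0.0235), an alternative chosen after seeing the data. The summed Y-linked genes moved between these groups, as given above, and their part in the result was not tested. Npas2 stayed at 0 counts in all 8 libraries.

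The wider clock pathway was described through 41 other genes: paralogs and nuclear receptors of the ROR and REV-ERB loop, PAR bZIP factors, repressors, kinases and ubiquitin ligases, partners of the core complexes and outputs. After siChchd10 in A/A cells 14 rose, 18 fell and 9 did not pass, where 26.5% of all genes tested were higher and 27.2% lower, with a median of -0.02 on the log2 scale. In S/S cells 6 rose and 9 fell, where 15% and 13% of all genes did. In the test of the difference 8 were higher and 11 lower, against 16.7% and 18.9% of all genes. With shAtf4, 39 were tested and 0 passed edgeR's test, with 4 at an unadjusted p under 0.05 and 1 called by DESeq2; the block called 3 higher and 5 lower, and 10.1% of all genes in each direction.

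Nr1d2, Rora and Rorb, nuclear receptor genes of the loop that sets the level of Arntl, all fell after siChchd10 in A/A cells. Nr1d2, for REV-ERBβ, the paralog of Nr1d1, had 68.9 CPM in S/S siControl, 54.1 in S/S siChchd10, 46.7 in A/A siControl and 27.5 in A/A siChchd10. It fell in S/S cells by -0.35 (edgeR adjusted p = 3.06e-06) and in A/A cells by -0.76 (adjusted p = 8.64e-13), and the difference of -0.41 passed the test (adjusted p = 4.64e-05). Rora, for the activator RORα that competes with REV-ERB proteins, had 1.34 CPM in S/S siControl and 31.7 CPM in A/A siControl, higher by 4.58 (edgeR adjusted p = 1.73e-22). It fell in A/A cells to 16.6 CPM (-0.93, edgeR adjusted p = 3.84e-10). Rorb went from 21.1 to 16.4 CPM in A/A cells (-0.37, edgeR adjusted p = 2e-04) and from 14.5 to 8.56 CPM in S/S cells (-0.76, adjusted p = 4.23e-08).

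Arntl2, the paralog of Arntl, fell in A/A cells after siChchd10, where Arntl rose, and was lower in A/A than in S/S cells, whereas Arntl was higher in A/A cells. Its level was 24.1 CPM in S/S siControl, 25.2 in S/S siChchd10, 9.82 in A/A siControl and 5.01 in A/A siChchd10, against 18.2, 20.7, 26.4 and 32.0 CPM of Arntl. Arntl2 fell by -0.97 after siChchd10 in A/A cells (edgeR adjusted p = 1.52e-12), and the difference from S/S cells, where its change was 0.06 (adjusted p = 0.436), was -1.03 (adjusted p = 5.27e-10). Paralogs can share reads, and how the authors' counting treated them is not given in the sources used here.

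All 3 listed repressors fell in A/A cells. Bhlhe40 and Bhlhe41, for the DEC proteins that bind E-boxes, fell by -0.49 and -0.99, and Ciart, for a repressor of the CLOCK and BMAL1 pair, by -0.41. In S/S cells Bhlhe40 (0.14, edgeR adjusted p = 0.0240) and Bhlhe41 (0.37, adjusted p = 0.0197) rose, and the differences of -0.63 and -1.35 between genotypes passed the test (adjusted p = 1.96e-08 and 1.1e-05). Bhlhe41 was low, at 1.32 CPM in A/A siControl and 0.669 CPM in A/A siChchd10.

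Of the PAR bZIP factors that share D-boxes with DBP, Tef fell with it in A/A cells (-0.22, edgeR adjusted p = 1.05e-05) and Hlf rose (0.62, adjusted p = 0.000477), at levels of 1.67 and 2.58 CPM. In S/S cells Hlf fell by -0.92 (edgeR adjusted p = 0.00288), from 0.529 to 0.278 CPM. Nfil3, the repressor at the same sites, fell in A/A cells by -0.14 (edgeR adjusted p = 0.0411). Among the kinases and ligases that set the stability of PER and CRY proteins, 5 of 15 rose and 6 fell in A/A cells, beside 26.5% and 27.2% of all genes. Csnk1e, for a casein kinase that marks PER proteins for degradation, fell by -0.34 (edgeR adjusted p = 1.01e-08), and its paralog Csnk1d rose by 0.13 (adjusted p = 0.00427). Fbxl21, for a ligase that acts on CRY proteins, was at 4.94 CPM in S/S siControl and 1.09 CPM in A/A siControl, a difference of -2.17 (edgeR adjusted p = 1.83e-14).

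Among the outputs, 4 of 6 rose and 1 fell in A/A cells after siChchd10, beside 26.5% and 27.2% of all genes. Por, for the reductase that serves cytochrome P450 enzymes, rose by 0.27 (edgeR adjusted p = 1.62e-05), and in S/S cells by 0.17 (adjusted p = 0.00569). Cdkn1a, for the cell cycle inhibitor p21, rose more in S/S cells (0.56, edgeR adjusted p = 1.44e-09) than in A/A cells (0.16, adjusted p = 0.00573), a difference of -0.39 that passed the test (adjusted p = 7.35e-05).

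**Figure D5:**
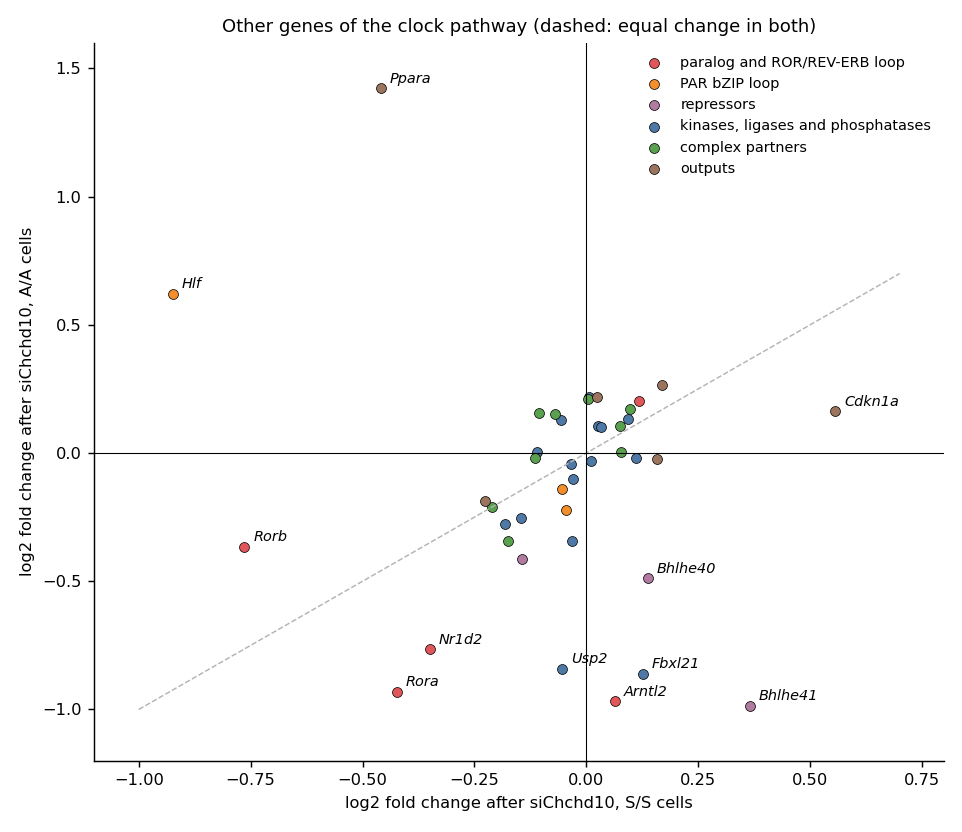
Change of the 41 other clock pathway genes after siChchd10, A/A cells (y axis) against S/S cells (x axis), both as log2 fold changes against siControl (1 point per gene; colours: sublists; dashed line: equal change). Arntl2, Bhlhe41 and Bhlhe40 lie below 0 on the y axis and at or above 0 on the x axis, Nr1d2 and Rora lie below 0 on both, and Hlf lies above 0 in A/A and below 0 in S/S cells.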

How the data were processed

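RNA-seq counts were analysed for 24 libraries in 6 groups of 4. Per the labels' protocols, RNA was extracted with Trizol from cultured tumour cells and libraries followed a stranded total RNA protocol. What the authors deposited are raw counts of reads per gene, in 1 table of shRNA and 1 of siRNA libraries. The submitters' processing notes name the build mm10 and DESeq2 1.24.0. Aligner, counter, strand setting and annotation: not given in the sources used here. Depth was 14067290 to 75409451 counts per library, and p-values also cover the spread between libraries.

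Counts were fitted with edgeR 4.0.16 in R 4.3.3: filterByExpr (14697 and 18138 genes kept), TMM scaling and robust quasi-likelihood tests, with Benjamini-Hochberg adjustment over all genes tested and a threshold of 0.05. "Rose", "fell", "higher" and "lower" beside an adjusted p refer to that test. The shRNA table was fitted by itself, and the 16 siRNA libraries in 1 model with a term per group. The fits were tested on simulated data. Alternatives were DESeq2 1.42.0, upper-quartile scaling, no filter, a replicate block, each library left out in turn, and fits of the compared groups alone.

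The clock genes and the gene lists were chosen with earlier results of these data known. Members were given in full; from the 41 other pathway genes the rule named, per comparison, up to 2 of the largest rises and 2 of the largest falls that passed, among genes averaging a log2 CPM of 0 or more, besides any whose role pairs with a core member. Csnk1d and Csnk1e and the neighbours of Npas2 were named after their values were seen. A pathway gene counted in the list is not reported here by itself.

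Replicate numbers come from the labels, which do not say what they mark. Deviations from the group means of same-numbered libraries correlated at 0.241 to 0.789 between the shRNA groups. Every pair lay above 0.1, so the numbers were taken to pair those libraries. S/S shControl replicate 3 (0.241) correlated more with a S/S shAtf4 library of another number. Replicate 4 lay apart in both groups, which raises such correlations whatever the numbers mark, so the pairing is an assumption. Between siRNA groups the correlations were -0.171 to 0.157, and the numbers do not pair them. Lengths for values per kilobase are merged exons of GENCODE M21, and coordinates count from 1.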

Additional observations from a re-analysis of the deposited data

Results flagged for a closer look

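In groups of 4 libraries, 56 sets of values were searched for a library far from the others, and 4 had one, where chance gives about 1 in 20. Nr1d1 was high in S/S shControl replicate 4 (50.9 CPM, others 16.2 to 21.5) and low in A/A siChchd10 replicate 4 (28.0 CPM, others 32.5 to 33.045). Clock was high in S/S shAtf4 replicate 4 (122 CPM, others 85.7 to 91.7), and Per2 was low in A/A siControl replicate 4 (17.5 CPM, others 18.9 to 19.1). Without A/A siChchd10 replicate 4 the fall of Nr1d1 in A/A cells was -0.57 on the log2 scale.

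The effect of siChchd10 differed between A/A and S/S cells, by the interaction test of edgeR, for 5 core genes and for 4 other pathway genes that were among those with the largest differences; the report gives further genes that passed. Among the core genes the A/A minus S/S difference on the log2 scale was -0.49 for Per1, -1.03 for Per3, 0.33 for Cry1, -0.74 for Nr1d1 and -0.55 for Dbp. Among those other pathway genes it was -1.03 for Arntl2, 0.40 for Rorb, 1.54 for Hlf and -1.35 for Bhlhe41.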

How the results depend on the processing

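Of 774 recomputed log2 changes of the 9 tested clock genes, 735 kept their direction and their side of the threshold, 10 lost a call, 8 gained one and 21 changed sign, all of the last among genes that had not passed the test. The counts of clock genes called by comparison kept within 1.5 times except as follows. With shAtf4 the replicate block called 3 genes, also without replicate 4 of both groups, against 0 in the fit without it. After siChchd10 in S/S cells, 2 were called with no filter on low counts, and leaving out 1 library gave 1 to 2, with 2 without S/S siControl replicate 2. The count over all genes with shAtf4 was 79, and 491 with DESeq2, 2969 with the replicate block, 1684 without replicate 4 of both groups and 3692 with the block and without them. It was 13 to 509 when 1 library was left out, lowest without S/S shAtf4 replicate 2 and highest without S/S shControl replicate 4; the cause was not tested. In the siRNA table the replicate block changed no call of the 9 clock genes. Of the 41 pathway genes it called 5 higher and 9 lower for S/S, 13 and 17 for A/A cells, 7 and 11 in the difference, 18 and 15 between genotypes with siControl and 16 and 17 with siChchd10.

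Leaving out 1 library, or replicate 4 of both shRNA groups, changed the sign of uncalled shAtf4 values, whose ranges were -0.17 to 0.10 for Clock, -0.0164 to 0.14 for Per1, -0.41 to 0.19 for Per2, -0.47 to 0.0342 for Per3, -0.11 to 0.17 for Cry1, -0.0397 to 0.20 for Cry2 and -0.18 to 0.70 for Nr1d1. Per2 was also 0.08 without replicate 4 of both shRNA groups, and 0.0375 with the block in addition. After siChchd10 Per2 ranged from -0.087 to 0.022 in S/S and from -0.0013 to 0.0725 in A/A cells. Leaving out 1 library gave 6 to 8 called genes in A/A cells and 5 to 6 between genotypes with siControl. The A/A difference of Npas2 was 0.91 to 1.02 over these fits. Standard errors were larger in the shRNA table, at 0.432 for Dbp against 0.0735 in A/A siRNA libraries, where Dbp also had more counts.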
